A study of Mus musculus with 6 samples.

Results

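The aminoacyl-tRNA synthetases are the enzymes that join each amino acid to its tRNA, and 37 of the 23896 named genes counted in the 6 mRNA-seq libraries belonged to this family. Members were taken by symbol alone: 1 letter for the amino acid followed by ars, with or without a, b, 1 or 2 at the end, plus Eprs, the fused enzyme for glutamate and proline. Each gene was represented by its RefSeq transcript with the highest mean count, which mattered for the 12 genes with several transcripts and not for the 25 with 1. Symbols ending in 2 were read as the mitochondrial enzymes (17 genes) and the other symbols as the cytosolic enzymes (20 genes). All 37 passed the filter on low counts, which 12381 genes passed in all.

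The libraries came from MEL cells, a mouse erythroleukemia cell line whose blocked erythroid precursors resume differentiation when exposed to DMSO. Cells were collected 0, 2 and 4 days after 2% DMSO was added, with 2 biological replicates per day, so day 0 stands for cells not yet induced. All samples were of this 1 line, and no untreated culture was followed to day 2 or day 4 among them, so DMSO exposure and time in culture cannot be told apart. Library depth ran from 35294930 to 53899476 counts on transcripts. Expression is given as CPM, a gene's counts scaled to the size of its library, after TMM factors, which place each library on the level of a typical gene, so a lower CPM can stand for fewer copies or for a smaller share of the cell's mRNA, and in these bulk samples fewer cells with a transcript cannot be told apart from less of it in each cell.

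The erythroid identity of the cells was visible in the 10 erythroid markers examined, whose summed level was 1090 and 1140 CPM in the day 0 libraries, 4480 and 5300 at day 2, and 17600 and 19700 at day 4. Most of the day 4 sum came from Hba-a1 (9793 and 11460 CPM) and Hbb-bs (4969 and 5101 CPM). Gata1 went only from 201.5 and 202.9 CPM at day 0 to 261 and 263.1 at day 4. Slc4a1, the anion exchanger of the red cell membrane, rose by 7.42 on the log2 scale from day 0 to day 4. Its day 0 level was low, at 0.22 and 0.24 CPM. Klf1 was the 1 marker of the 10 that fell (log2 fold change -0.54, adjusted p = 0.0188, edgeR). Its day 0 pair was uneven, at 192.2 and 309.2 CPM, against 172.7 and 171.1 at day 4. Of 13 markers of other blood and stromal cells, 10 stayed under 1 CPM in every library, including 2 at 0 counts throughout, and their sum went from 8.97 and 10.1 CPM at day 0 to 3.74 and 3.58 CPM at day 4. Col1a1 and Pdgfrb were the markers of that list that fell. The part of this low signal in the synthetase values was not tested.

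Synthetases fall into class I and class II by the fold of their catalytic domain, and the classes attach the amino acid to different hydroxyl groups of the terminal adenosine of the tRNA. Most amino acids are served by separate nuclear genes for the cytosol and for the mitochondrion, where the enzyme supplies the few proteins encoded by mitochondrial DNA. Gars and Kars make the enzyme of both compartments from 1 gene, and several cytosolic enzymes are held together with the scaffold proteins Aimp1, Aimp2 and Eef1e1 in the multisynthetase complex. Many cytosolic synthetase genes are known targets of ATF4, the transcription factor of the amino acid response, which binds a composite element together with a C/EBP protein.

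That element, searched as TGATGNAA on both strands, was found in the promoters of 5 cytosolic members, and 5 windows, 1 for each gene, are shown because the values of these members, and of other known ATF4 targets, are described further on. The RefSeq promoter table of build GRCm38.p6 held 27 of the 37 members, 13 of them cytosolic and 14 mitochondrial. Its promoters, 32851 for 27025 genes, run from 250 bases before to 50 bases after a listed start. A listed start need not be the outermost start of the gene. Each window has 30 bases and is written 5′ to 3′ on the strand named, with the matching letters in capitals.
Aars, chr8:111033840-111033869, minus strand: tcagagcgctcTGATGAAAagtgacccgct
Gars, chr6:55037960-55037989, minus strand: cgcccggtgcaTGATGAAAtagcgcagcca
Iars, chr13:49682126-49682155, minus strand: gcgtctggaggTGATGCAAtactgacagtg
Tars, chr15:11399655-11399684, plus strand: agctaaccagcTGATGCAAcgggactcctg
Yars, chr4:129189895-129189924, plus strand: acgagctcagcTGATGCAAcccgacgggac

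The match began at base 10 after the listed start in Aars, 30 bases before it in Gars and 15 bases before it in Tars. In Iars and Yars the match began at bases 8 and 4 after the listed start. None of the 14 mitochondrial promoters held these letters, which describes this window only. Of the 27025 genes in the table, 4.51% had a match. The E-box CACGTG, the letters bound by MYC with MAX among other factors, was found in the promoters of Aars, Farsb, Iars and Tars, and of the mitochondrial Ears2, against 8.09% of all genes. No window of one motif overlapped a window of the other. A match is a description of the letters and was not tied to binding in these cells.

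Per kilobase of transcript, which allows levels of different genes to be compared, the cytosolic enzymes were mostly the more abundant. Their mean over the 6 libraries ran from 20.8 CPM per kilobase for Cars to 98.1 for Gars, with Nars at 97.7. Of the 17 mitochondrial enzymes, 15 lay below that lowest cytosolic value, from 2.73 for Pars2 to 20.6 for Cars2. The exceptions were Tars2 at 77.6 and Lars2 at 828 CPM per kilobase. Transcript lengths were those of the matching GENCODE models, or the RefSeq gene span for Mars2.

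All 20 cytosolic synthetases taken by symbol fell between day 0 and day 4. Their median log2 fold change was -1.23, which left 42.5% of the starting level, and 17 of the 20 fell by at least 1 on the log2 scale. The smallest fall was that of Qars and the largest that of Nars, the asparagine enzyme. Over all 12381 genes tested, 71.8% were called at an adjusted p below 0.05, 36.4% lower and 35.5% higher, with a median log2 fold change of -0.02. No cytosolic member was called higher, whether by edgeR, by edgeR at an unadjusted p below 0.05, or by DESeq2. Both day 4 libraries were below both day 0 libraries for all 20, an order seen in 42.4% of all genes.

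**Figure D1:**
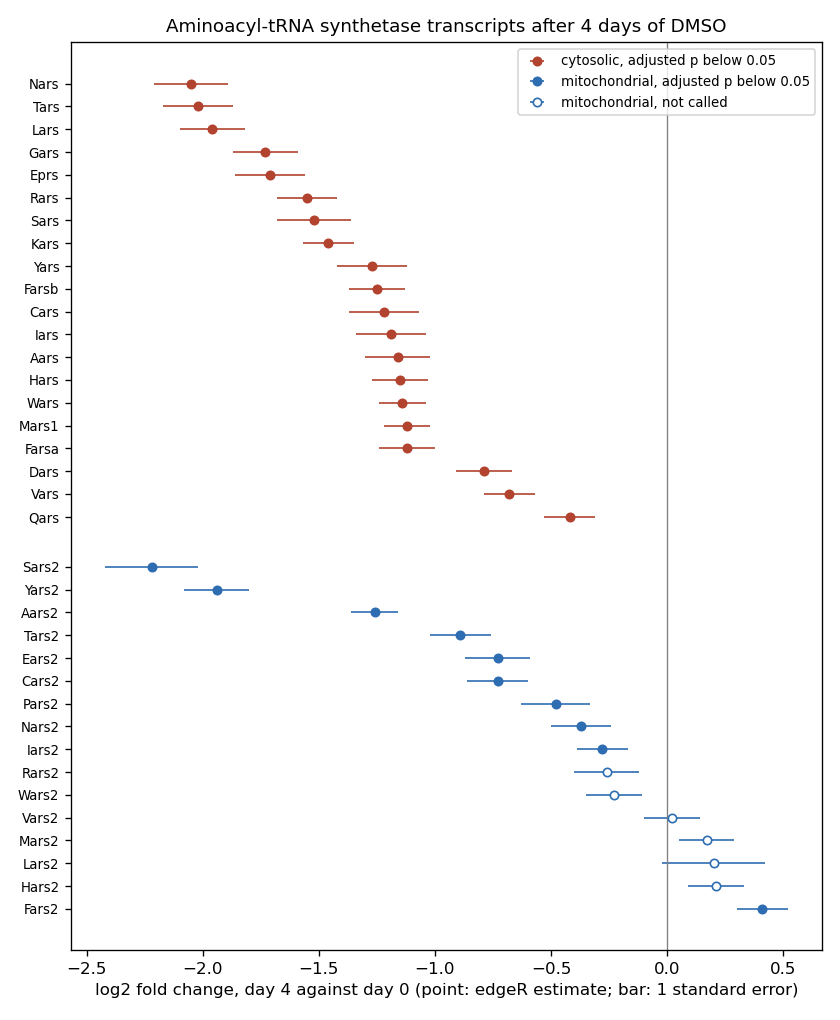
Log2 fold change of each synthetase transcript, day 4 against day 0 (x axis), for the 20 cytosolic genes (red) and 16 of the 17 mitochondrial genes (blue), with bars of 1 standard error and open points for members not called. Every red point lies left of 0, from -2.05 for Nars to -0.42 for Qars, while the blue points run from -2.22 for Sars2 to 0.41 for Fars2.

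Nars stood at 481 and 482 CPM at day 0, 217 and 197 at day 2, and 136 and 96.4 at day 4. The days did not overlap, and each step was downward. The fall to day 4 was -2.05 on the log2 scale (SE 0.16, adjusted p = 7.83e-07, edgeR). Tars, which charges the threonine tRNA, was measured at 407 and 375, then 180 and 164, then 111 and 82.3 CPM. It fell as steeply, with a log2 fold change of -2.02 (SE 0.15, adjusted p = 5.59e-07). Lars, the cytosolic leucine enzyme and a member of the multisynthetase complex, went from 309 and 305 CPM through 151 and 139 to 90.0 and 67.6 CPM, with a log2 fold change of -1.96 (SE 0.14). In these 3 genes the second day 4 library was the lowest of the 6. So it was in every other cytosolic gene except Farsa, Mars1 and Qars. The cytosolic median to day 4 was -1.12 without that library and -1.43 without the first day 4 library.

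Gars, whose product also serves the mitochondrion, had the highest mean level per kilobase of the cytosolic set over the 6 libraries. Nars was higher at day 0 (175 against 162 CPM per kilobase), and Qars at day 4 (74.9 against 48.9). Gars was counted at 417 and 353 CPM at day 0, 204 and 194 at day 2, and 129 and 104 at day 4. That is a fall of 1.73 on the log2 scale. Kars, the other gene that supplies both compartments, fell by 1.46. Eprs, the fused glutamate and proline enzyme, fell by 1.71, and Rars and Sars had log2 fold changes of -1.55 and -1.52. Yars, Farsb, Cars, Iars, Aars, Hars, Wars, Farsa and Mars1 had log2 fold changes between -1.27 and -1.12, with Yars at -1.27, Farsb at -1.25, Cars at -1.22, Iars at -1.19, Aars at -1.16, Hars at -1.15, Wars at -1.14, and both Farsa and Mars1 at -1.12.

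The 3 cytosolic genes that fell by less than 1 on the log2 scale were Dars, Vars and Qars. Qars, the glutamine enzyme, moved from 283 and 279 CPM at day 0 through 225 and 231 at day 2 to 205 and 215 at day 4. These values were separated by day, yet the day 4 level was the mildest decline of the cytosolic set, at -0.42 (SE 0.11, adjusted p = 0.00388, edgeR). Vars, the valine enzyme, went from 218 and 232 CPM through 152 and 157 to 146 and 134 CPM, a log2 fold change of -0.68 (SE 0.11). Dars, the aspartate enzyme, went from 136 and 130 CPM through 111 and 97.8 to 85.1 and 69.0 CPM, a log2 fold change of -0.79 (SE 0.12). Both declines were called, with edgeR adjusted p = 1.65e-04 and 1.58e-04.

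The 8 enzymes of the multisynthetase complex (Eprs, Iars, Lars, Mars1, Qars, Rars, Kars and Dars) had a median change of -1.32, against -1.23 for the other 12, and the difference was not tested. The complex held both the mild decline of Qars and the steep decline of Lars. The 5 cytosolic genes with TGATGNAA in the promoter had a median of -1.27 and a range from -2.02 to -1.16, while the 8 with a promoter in the table and no match had a median of -1.18. The difference between these medians was not tested.

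The 17 mitochondrial enzymes were spread more widely. At day 4, 10 had fallen, 1 had risen and 6 were not called, with a median log2 fold change of -0.37, or 77.2% of the day 0 level. Both day 4 libraries were below both day 0 libraries for 12 of them and above for 3, with overlap in 2, while 42.3% of all genes had the upward order. The share called lower, 10 of 17, is to be read beside the 36.4% of all genes called lower and the 20 of 20 cytosolic members. Without the first day 0 library, 3 mitochondrial members were called higher in place of 1.

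Sars2, Yars2 and Aars2 fell the most of this group. Sars2, which charges the mitochondrial serine tRNAs, was at 22.5 and 35.1 CPM at day 0, 7.14 and 7.79 at day 2, and 5.62 and 6.67 at day 4. The day 0 pair was uneven, but all later values were far under both of its libraries, and the log2 fold change was -2.22 (SE 0.20, adjusted p = 2.60e-06, edgeR). Yars2, the mitochondrial tyrosine enzyme, dropped from 40.2 and 50.7 CPM to 14.8 and 13.8 at day 2 and to 11.9 in both day 4 libraries, a change of -1.94 (SE 0.14). Aars2, the alanine enzyme, was at 86.4 and 86.6 CPM, then 40.9 and 43.4, then 35.6 and 36.4, a change of -1.26 (SE 0.10). For these 3 genes most of the decline had taken place by day 2, with log2 fold changes of -1.95, -1.67 and -1.04 at that day.

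Tars2 had the second highest level per kilobase of the mitochondrial set. It was at 296 and 233 CPM at day 0, 145 and 159 at day 2, and 147 and 138 at day 4. The day 2 and day 4 values overlapped, and the fall from day 0 was -0.89 (SE 0.13, adjusted p = 9.29e-05, edgeR). The log2 fold changes of others that fell were -0.73 for both Cars2 and Ears2, -0.48 for Pars2, -0.37 for Nars2 and -0.28 for Iars2. The calls of the last 3 were the least secure. That of Iars2 (adjusted p = 0.0373) was lost without the first day 0 library, where the change was -0.16, and without any 1 of the 4 later libraries, where it lay between -0.30 and -0.27. The call of Nars2 (adjusted p = 0.0246) was lost without the second day 4 library (-0.29), and that of Pars2 (adjusted p = 0.0108) without the first day 4 library (-0.38).

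Fars2, the mitochondrial phenylalanine enzyme, was the member that rose. It was at 17.1 and 17.2 CPM at day 0, 18.4 and 18.6 at day 2, and 22.6 and 23.0 at day 4. The days were ordered with no overlap, and the log2 fold change was 0.41 (SE 0.11, adjusted p = 0.00704, edgeR). Its change was 0.11 to day 2 and 0.30 from day 2 to day 4, neither of which was called. On the opposite strand, 8.72% of its exon bases are shared with Nrn1 and 2% with Lyrm4, and 4.1% of the 30-base words of the transcript used for its length also occur in Lyrm4. The part of Lyrm4 reads in the counts of Fars2 was not tested.

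Hars2, the mitochondrial histidine enzyme, was at 37.0 and 32.2 CPM at day 0, 42.8 and 39.8 at day 2, and 40.4 and 39.5 at day 4. All later values were above both day 0 libraries, but the change of 0.21 (SE 0.12, adjusted p = 0.125, edgeR) was not called, and it was called at 0.31 without the first day 0 library. Mars2 had a log2 fold change of 0.17 and Vars2 of 0.02, and both had adjusted p values above the threshold, at 0.22 and 0.898. Rars2 (-0.26) and Wars2 (-0.23) were not called either, and each passed the threshold when 1 library was left out, Rars2 at -0.46 without the first day 4 library and Wars2 at -0.34 without the second day 0 library.

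Lars2, the mitochondrial leucine enzyme, differed from the rest of the family in its level and its spread. It was counted at 3645 and 2244 CPM at day 0, 3603 and 3099 at day 2, and 2978 and 3769 at day 4. The libraries of the 3 days overlapped, and the day 0 pair alone spanned nearly the whole range. The fitted change was 0.20 (SE 0.22, adjusted p = 0.435). It was 0.58 and called without the first day 0 library, and -0.12 without the second. The most abundant transcript of the tables, an RNA without a symbol that took between 3.78% and 4.98% of the counts of a library, had 13.8 and 24.1 times the counts of Lars2 in the day 0 libraries and from 12.4 to 12.99 times in the 4 later ones. What part of the Lars2 counts came from that RNA was not tested.

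**Figure D2:**
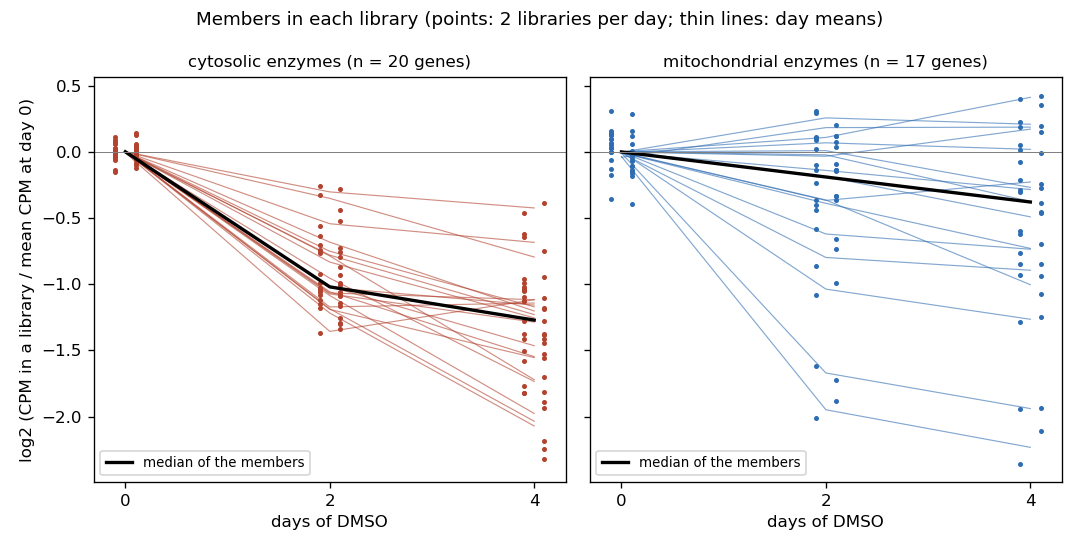
Level of each member in each library over its day 0 mean (y axis, log2) against days of DMSO (x axis), with the cytosolic genes on the left and the mitochondrial genes on the right. Points are single libraries, thin lines join the day means of a gene and the thick line joins the medians. The lines of all 20 cytosolic genes end below 0, while those of the mitochondrial genes fan out to both sides of it.

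The first 2 days carried most of the decline of the cytosolic enzymes. All 20 were lower at day 2 than at day 0, with a median log2 fold change of -1.02, or 49.3% of the day 0 level. Among all genes 62.5% were called, 31.5% lower and 31.0% higher, around a median of 0.01. Farsa, the catalytic subunit of the phenylalanine enzyme, had the largest fall at this step, at -1.36 (SE 0.12, adjusted p = 4.64e-06, edgeR). Its partner subunit Farsb fell by 0.83. The mildest members were again Qars at -0.30 (adjusted p = 0.0273) and Dars at -0.35 (adjusted p = 0.0279), whose calls were lost without either day 2 library, and that of Qars also without either day 4 library. Of the mitochondrial enzymes 8 were lower at day 2 and 0 higher by edgeR, with a median of -0.19, which became 0.01 when libraries were scaled by total counts alone. That scaling moved the median of all genes at this step to 0.21, with 5001 genes called higher and 2881 lower in place of 3841 and 3902, and left 18 cytosolic members lower, with Dars at -0.15 and Qars at -0.10 no longer called, and 2 mitochondrial members higher and 5 lower. At an unadjusted p below 0.05, 1 was higher, and DESeq2 called 0 higher. The count of 8 became 5 without the first day 0 library, the first day 2 library or the second day 2 library, with Cars2 and Wars2 among those no longer called, and without the first day 0 library 2 were called higher. Wars2 was called lower at this day only (-0.37, adjusted p = 0.0232).

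Between day 2 and day 4 the fitted changes of 18 of the 20 cytosolic genes were below 0, with a median of -0.43 over the 20. Of the 20, 11 were called lower, against 16.2% of all genes called lower, 14.0% called higher and 30.3% called in either direction. By total counts alone the split of all genes at this step was 1228 higher and 2532 lower in place of 1739 and 2010. The steepest falls were those of Eprs at -0.92, Lars at -0.88, Tars at -0.84, Nars at -0.83 and Gars at -0.77. Sars, Cars, Dars, Kars, Farsb and Iars fell too, with values from -0.51 to -0.42. The other 9 were not called. Of these, Aars at -0.40 (adjusted p = 0.0518, edgeR) and Rars at -0.36 (adjusted p = 0.0544) lay close to the threshold. The rest were Yars at -0.19, Vars at -0.14, Hars at -0.13, Qars at -0.12, Mars1 at -0.05, Wars at 0.03 and Farsa at 0.24. The subunits of the phenylalanine enzyme thus had fitted changes of opposite sign at this step, with Farsa at 65.7 and 67.0 CPM at day 2 and 81.9 and 74.8 at day 4. The count of 11 was 4 without the first day 2 library, 5 without the second day 2 library and 5 without the second day 4 library. With only the libraries of those days, and without either day 0 library, 1 cytosolic member (Farsa) was called higher.

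A single mitochondrial member was called lower between day 2 and day 4 by edgeR. The median of the group at this step was -0.14. Without the first day 2 library or the second day 4 library the count was 0, and it was 5 and 4 without the first and the second day 0 library. No mitochondrial member was called higher by edgeR or DESeq2, while 1 was at an unadjusted p below 0.05.

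Pairing the enzymes of 1 amino acid within each library gave a measure that library scaling cannot alter, the log2 ratio of mitochondrial to cytosolic counts. Of 15 such pairs, 10 had both day 4 libraries above both day 0 libraries, 2 had them below and 3 overlapped. Among all single genes, 42.3% had the upward order and 42.4% the downward one. No such share was computed for ratios of other genes. The median shift was 0.92 on the log2 scale, a 1.89-fold gain of the mitochondrial transcript over its cytosolic counterpart, and at day 2 it was already 0.62. Eprs, Farsb, Gars, Kars and Qars had no partner among the mitochondrial members, and Ears2 and Pars2 correspond to the fused Eprs. The pairs do not repeat a measurement, so no test was made over them.

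The ratio of Nars2 to Nars was -4.67 and -4.72 at day 0, -3.46 and -3.54 at day 2, and -3.16 and -2.84 at day 4. The shift of 1.70 came with a Nars2 level that moved little beside the steep fall of Nars. For Fars2 against Farsa the ratio went from -3.16 and -3.44 to -1.86 and -1.70, a shift of 1.52. Hars2 against Hars shifted by 1.37, Mars2 against Mars1 and Rars2 against Rars by 1.29 each, and Tars2 against Tars by 1.15. Hars and Hars2 lie head to head and share 195 exon bases on opposite strands, 7.97% of the exon bases of Hars and 4.56% of those of Hars2. The largest shift, 2.20 for Lars2 against Lars, rests on the counts of Lars2 described above.

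Serine and tyrosine went the other way. For Yars2 against Yars the ratio was -2.59 and -2.25 at day 0 and -3.30 and -2.82 at day 4, below both starting values, a shift of -0.64. For Sars2 against Sars it was -3.76 and -2.93 at day 0, -4.29 and -4.11 at day 2, and -4.39 and -3.61 at day 4. The day 2 values were below both day 0 values and the day 4 values overlapped them, with a shift of -0.65. Aars2 against Aars shifted by -0.09, with overlap.

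**Figure D3:**
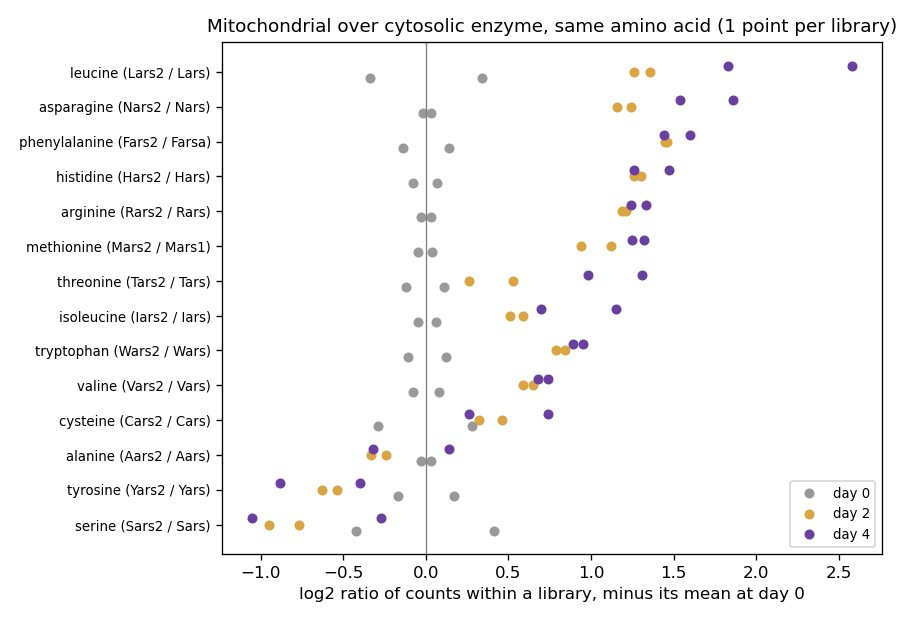
Log2 ratio of mitochondrial to cytosolic counts within a library, less its day 0 mean (x axis), for 14 amino acids (y axis), with 1 point per library colored by day. In 10 pairs both day 4 points lie to the right of both day 0 points, from valine with a shift of 0.71 to leucine with a shift of 2.20, and the tyrosine points lie to the left.

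Summed per kilobase, the cytosolic transcripts stood at 1960 and 1928 CPM at day 0, 1046 and 993 at day 2, and 836 and 687 at day 4. The day 4 mean was 39.2% of the day 0 mean. The mitochondrial transcripts without Lars2 summed to 320 and 294 at day 0, 202 and 207 at day 2, and 189 and 181 at day 4, or 60.2% of the day 0 mean. Both sums were separated between day 0 and the later days in every library, but the mitochondrial sum was the less reduced. The mitochondrial share of the sum without Lars2, which does not depend on library scaling, was 14.0% and 13.3% at day 0, 16.2% and 17.2% at day 2, and 18.4% and 20.9% at day 4. The days did not overlap. An exact two-sided permutation test of 2 against 2 libraries cannot give less than p = 0.333, and that was the value for this share. With Lars2 included, the mitochondrial sum was 1256 and 871 at day 0 and 953 and 1149 at day 4, with overlap, and the day 4 mean was 98.9% of the day 0 mean.

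**Figure D4:**
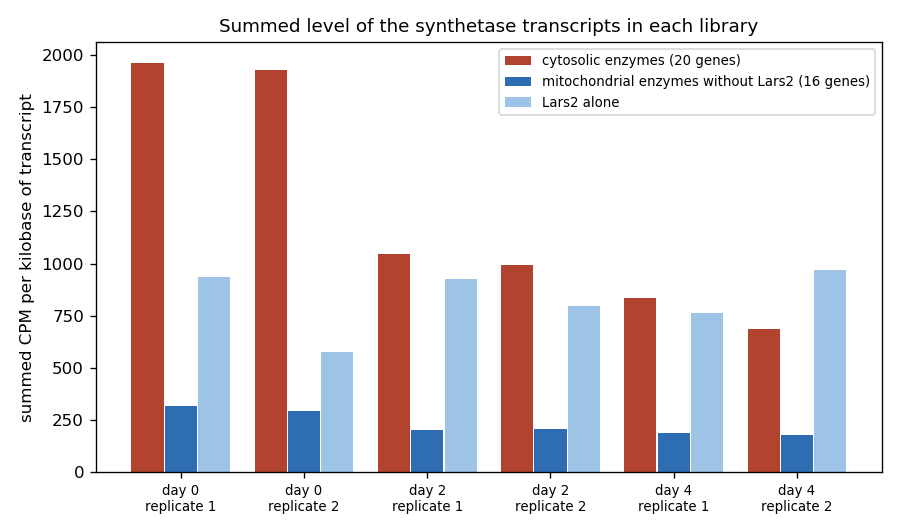
Summed level in CPM per kilobase of transcript (y axis) in each of the 6 libraries (x axis) for the 20 cytosolic genes, the 16 mitochondrial genes without Lars2 and Lars2 alone. The cytosolic bars shrink from 1960 and 1928 at day 0 to 836 and 687 at day 4, and the mitochondrial bars from 320 and 294 to 189 and 181.

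By catalytic class, 13 of 18 class I members fell to day 4, with a median of -0.73, and 16 of 18 class II members fell and 1 rose, with a median of -1.15. These counts stand beside the 36.4% of all genes called lower, 35.5% called higher and 71.8% called in either direction. Eprs has both kinds of domain and was left out. Within the cytosol the medians were -1.19 for 9 class I genes and -1.36 for 10 class II genes. Within the mitochondrion, 4 of 9 class I members fell, with a median of -0.26, and of 8 class II members 6 fell and 1 rose, with a median of -0.69. The difference between classes was not tested.

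Genes that work beside the synthetases were described by the same counts. Of 20 partners and related enzymes, 11 fell and 3 rose between day 0 and day 4, with a median of -0.66. In either direction 70% were called, beside 71.8% of all genes. By direction, 36.4% of all genes were called lower and 35.5% higher. Eef1e1 and Aimp1, scaffold proteins of the multisynthetase complex, had log2 fold changes of -1.99 and -1.23. Qrsl1 and Gatb, subunits of the amidotransferase that completes mitochondrial glutaminyl-tRNA, stood at -1.91 and -1.59. Aarsd1 and Prorsd1, relatives of editing domains that clear mischarged tRNA, were at -1.79 and -1.41, Xpot, the nuclear exporter of tRNA, at -1.27, and Trnt1, which adds the terminal CCA, at -1.07. Tarsl2, a further threonyl-tRNA synthetase gene whose symbol falls outside the pattern used for the members, was not called at day 4, at -0.12 (adjusted p = 0.322, edgeR), nor at day 2, at 0.24, and fell between day 2 and day 4 at -0.36 (adjusted p = 0.0273). Gatc, the third subunit of the amidotransferase, was not called at -0.20.

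Of 6 cytosolic elongation factors 4 fell, with a median of -0.64, and the largest falls were those of Eef1d (-1.69) and Eif5a (-1.61). The share called, 66.7%, was near the 71.8% of all genes called in either direction. All 4 calls were lower, however, while 36.4% of all genes were called lower and 35.5% higher. The same shares stand beside the next list. Of 9 mitochondrial translation factors 6 fell and 1 rose, or 77.8% called, among them Mtrf1 at -1.90, Tsfm at -1.66, Gfm1 at -1.58 and Mrrf at -1.24. Tufm, which stood at the median of these 9, fell by 1.00 on the log2 scale. The mitochondrial factors named here act after the tRNA is charged, in its delivery to the ribosome, in translocation and in release or recycling. Initiation factors were also among the 9. The median of the mitochondrial factors was thus lower than that of the mitochondrial synthetases, and the difference was not tested.

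The genes of the amino acid response, which ATF4 is known to drive, fell more steeply than the synthetases by their median. Of 24 tested of 25 listed, 22 fell to day 4 and the other 2 were not called by edgeR, with a median log2 fold change of -1.84. At day 2, 19 fell and 1 rose, and between day 2 and day 4, 18 fell. Of all genes, 36.4% were called lower at day 4, 31.5% at day 2 and 16.2% between those days. Atf4 itself fell by 1.80 (SE 0.19, adjusted p = 7.71e-06, edgeR). Among enzymes of serine and one-carbon metabolism, the log2 fold changes were -3.53 for Phgdh, -3.49 for Psph, -3.28 for Aldh1l2, -2.54 for Mthfd2, -2.27 for Psat1 and -2.24 for Shmt2. Cth, which makes cysteine from cystathionine, had the largest fall of the list at -4.11, and Slc7a11, the cystine transporter, fell by 3.44. Chac1, Trib3 and Stc2 were at -2.85, -2.77 and -2.43, and Herpud1, Cebpb, Ddit3, Pck2, Ddit4, Slc7a1 and Slc3a2 fell with values from -1.88 to -1.06. Of the 22 that fell to day 4, 19 fell by 1 or more on the log2 scale. Atf5 and Nupr1 had values of 0.33 and 0.31 at day 4 and were not called there. Atf5 was the 1 gene of the list called higher at day 2 (0.78, adjusted p = 0.0421, edgeR). Whether the decline of these genes and that of the synthetases had a common origin was not tested.

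Several members share sequence with a neighbour, and the deposited counts may divide or double such reads. Within a gene, the 2 RefSeq transcripts of Yars2 had the same counts in every library. By the GENCODE models, Aars shares 1326 exon bases, 14.3% of its total, with Exosc6 on the same strand. On the opposite strand, 22.9% of the exon bases of Iars2 are shared with Rab3gap2. The kit kept the strand, but the strand setting used in counting was not given in the sources used here, so reads of such opposite genes cannot be told apart. In Iars, whose exons overlap no other gene, 18.4% of the 30-base words of its transcript also occur in other genes, mostly in the pseudogene Gm4849. Without the 8 members that share at least 5% of their exon bases with another gene, the remaining cytosolic median at day 2 was -1.06. No mitochondrial member was then called higher at day 4 or lower after day 2, and Fars2 was among the members left out.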

How the data were processed

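Poly(A)-selected, stranded libraries of MEL cells at days 0, 2 and 4 of DMSO were used, 2 per day, grouped by the labelled time. Per the submitters' notes, the authors trimmed reads with cutadapt, aligned them to mm10 with TopHat, counted them with HTSeq and compared days with DESeq2. The deposited values are raw counts per RefSeq transcript. Versions are not given in the labels. Reads outside features (50.5 to 58.4% of all counts of a library, where a read on several transcripts may count more than once) and the other 4 totals, all at 0, were left out.

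Accessions were mapped to symbols with the RefSeq gene table and GENCODE, leaving 268 of 32654 transcripts without one. Counts were filtered with filterByExpr, scaled by TMM and tested in edgeR 4.0.16 (R 4.3.3) by the quasi-likelihood test, with 1 mean per day over all 6 libraries. P-values were adjusted by Benjamini-Hochberg over the 18351 transcripts that passed, and a call means an adjusted p below 0.05. Standard errors come from the same model. Summaries over all genes used 1 transcript per gene. The steps were also run on simulated counts, with known changes in 200 transcripts in each of 2 draws. Far more genes were called in the data, so these draws do not show how the steps behave at that scale. Alternatives were DESeq2 1.42.0, other scalings and filters, a replicate block, only the days compared, a minimum change, and leaving out each library. Leaving out Lars2, and members with overlapping exons, was added after seeing the data.

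The members and gene lists were chosen with earlier results of these data known. Values in every library are given, for each compartment, for the 3 highest and the 3 lowest members by log2 fold change to day 4, the 2 with the highest level per kilobase, and any member called against the direction of its group. Single values of 1 mitochondrial member, and 1 promoter window, are not reported here, though that member is in every count, median and sum. The library values of Farsa, the pairs described by library, and the single markers, Gatc, Tarsl2, Atf5 and Nupr1 were chosen after their values were seen. Other genes of the companion lists are named as changed where they passed the test and moved by 1 or more on the log2 scale. These lists hold partners of the synthetases, cytosolic and mitochondrial translation factors, and amino acid response genes. The spread between libraries was measured by 2 replicates per day, and counting error weighs most in the members with the fewest counts.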

Additional observations from a re-analysis of the deposited data

How the results depend on the processing

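All 20 cytosolic enzymes were called lower from day 0 to day 4 in every alternative that kept the call at an adjusted p below 0.05 and all members. Scaling by total counts alone brought the median of all genes to 0.21 from day 0 to day 2, -0.09 from day 2 to day 4 and 0.10 from day 0 to day 4, in place of 0.01, -0.0046 and -0.02. With it 18 cytosolic members were lower at day 2, the day 2 medians were -0.82 (cytosolic) and 0.01 (mitochondrial, a change of sign), 2 mitochondrial members were higher and 5 lower at day 2, 4 were lower from day 2 to day 4, 2 were higher at day 4, the day 4 median was -0.26 and the sum without Lars2 was 65.2% of day 0. It also turned the sign of values that were not called: Iars2 (0.06), Mars2 (0.17), Nars2 (0.18) and Pars2 (0.01) at day 2, and Lars2 (-0.08) and Wars (-0.05) from day 2 to day 4. Requiring a change of 1 or more on the log2 scale left 11 cytosolic and 3 mitochondrial members lower at day 2, 0 and 0 lower from day 2 to day 4, and 0 mitochondrial members higher and 4 lower at day 4. With only the days compared, 1 cytosolic and 1 mitochondrial member were higher and 4 mitochondrial members lower from day 2 to day 4, and with no filter beyond 1 count 3 were lower. Without members whose exons overlap another gene, the day 2 cytosolic median was -1.06, and 0 mitochondrial members were lower from day 2 to day 4 or higher at day 4. Without Lars2 the mitochondrial sum was 60.2% of day 0 in place of 98.9%. DESeq2 and the relative log expression factors turned the sign of Rars2 at day 2 (-0.01 and -0.02) and Vars2 at day 4 (-0.0007 and -0.0030). Where no value shows it, the cause was not tested.

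Leaving out 1 library leaves a lone sample in its day, assumed to vary like the others. The cytosolic median then ran from -0.58 to -0.23 from day 2 to day 4, and from -1.43 to -1.12 from day 0 to day 4. The mitochondrial median ran from -0.46 to -0.30 from day 0 to day 4. The ranges at day 2 were 18 to 20 cytosolic members lower, a cytosolic median from -1.06 to -0.98, 0 to 2 mitochondrial members higher and 5 to 9 lower. From day 2 to day 4 they were 0 to 1 cytosolic members higher and 4 to 14 lower, and 0 to 1 mitochondrial members higher and 0 to 5 lower. At day 4, 1 to 3 mitochondrial members were higher. Values that were not called and turned sign ranged, at day 2, from -0.13 to 0.58 for Lars2, -0.10 to 0.03 for Mars2, -0.14 to 0.09 for Nars2, -0.09 to 0.11 for Rars2 and -0.05 to 0.19 for Vars2. From day 2 to day 4 they ranged from -0.10 to 0.0014 for Hars2, -0.17 to 0.17 for Lars2, -0.02 to 0.07 for Wars and -0.46 to 0.03 for Yars, and at day 4 from -0.12 to 0.58 for Lars2 and -0.11 to 0.14 for Vars2.

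The labels do not say whether the replicate numbers pair the samples. Deviations of libraries with the same number correlated at 0.032 to 0.079 between days. A low correlation cannot show that the samples were unpaired, so the replicate block was kept as an alternative. With the replicate block, 20 cytosolic members were lower at day 2, 11 from day 2 to day 4 and 20 at day 4, and the call of Rars was gained and that of Cars lost from day 2 to day 4. The count of all genes called at day 2 under the block was 3811 higher and 3886 lower.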
